A study of Mus musculus with 9 samples.

Results

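The interleukin-1 family genes of BV2 cells were examined here, an immortalized mouse microglial line. The 9 genes were taken by name from the 54532 rows of the expression table. They comprised 3 agonist ligands (Il1a, Il1b and Il18), 2 soluble antagonists (Il1rn and Il18bp), the signalling receptor chains Il1r1, Il1rap and Il1rl1, and the decoy receptor Il1r2. RNA was sequenced in 3 groups of 3 libraries. The control group (Ctrl) stayed at normal oxygen in medium holding 10% serum. The OGD group was exposed to oxygen glucose deprivation, in low-glucose medium with 4% serum and 4% O2. The OGD + A-485 group received the same deprivation with A-485, an inhibitor of the histone acetyltransferase P300. In the experiments that preceded the transcriptome, A-485 was present at 50 μM for 24 h from the start of OGD, and dose and time are not restated for the sequenced libraries. All 3 groups were of the same line, OGD changed serum, glucose and oxygen together, and no group had A-485 without OGD. The effect of A-485 is therefore described on the background of OGD.

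Interleukin-1α and interleukin-1β bind the same receptor, IL-1R1, which then recruits the accessory chain encoded by Il1rap and signals through MyD88 and IRAK kinases to NF-κB. The receptor antagonist encoded by Il1rn occupies IL-1R1 without signalling, and IL-1R2 binds the ligands but has no signalling domain. Interleukin-18 has a receptor of its own and is neutralized by the binding protein encoded by Il18bp. ST2, encoded by Il1rl1, is the receptor for interleukin-33 and also pairs with the Il1rap chain. Interleukin-1β and interleukin-18 are made as inactive precursors that caspase-1 cuts in inflammasomes, whereas the precursor of interleukin-1α is already active. Microglia are a major source of interleukin-1 in the injured brain.

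Several of these genes lie close together in the GRCm38 genome. Il1a (chr2:129299610-129309972) and Il1b (chr2:129364570-129371139) are both on the minus strand, 54.6 kb apart. Il1rn (chr2:24336853-24351494, plus strand) is on the same chromosome at a distance of 104948 kb. Il1r2 (chr1:40074079-40125231), Il1r1 (chr1:40225080-40317257) and Il1rl1 (chr1:40429570-40465415) follow each other on the plus strand, with gaps of 99.8 kb and 112 kb. Il1rap (chr16:26581704-26730117, plus strand), Il18 (chr9:50554827-50581840, plus strand) and Il18bp (chr7:102014885-102018690, minus strand) stand alone.

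The 250 bases before the transcription start were taken from RefSeq (GRCm38.p6) for all 9 genes, which together had 13 such windows. The promoters of the neighbouring genes Il1a and Il1b, of the antagonist Il1rn and of the decoy Il1r2 are printed, since these 4 genes were called higher in OGD. Capitals mark matches on either strand to AP-1 (TGANTCA), the core of the hypoxia response element (ACGTG), C/EBP (TTGCNNAA), PU.1 (GAGGAA), the core of the cAMP response element (TGACG) or the NF-κB consensus. The windows are chr2:129309973-129310222 (minus strand) for Il1a, chr2:129371140-129371389 (minus strand) for Il1b, chr2:24336610-24336852 (plus strand, the first of 3 starts) for Il1rn and chr1:40085843-40085984 (plus strand) for Il1r2, whose RefSeq start lies inside the gene span given above. The Il1rn window is printed up to the first exon of the gene in GENCODE M21. The Il1r2 window is printed in part only, and lies downstream of the M21 start of that gene (chr1:40074079).
Il1a: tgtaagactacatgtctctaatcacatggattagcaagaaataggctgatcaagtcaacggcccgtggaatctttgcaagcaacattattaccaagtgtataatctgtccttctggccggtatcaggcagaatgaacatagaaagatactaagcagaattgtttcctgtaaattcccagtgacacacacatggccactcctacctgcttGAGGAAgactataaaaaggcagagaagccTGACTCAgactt
Il1b: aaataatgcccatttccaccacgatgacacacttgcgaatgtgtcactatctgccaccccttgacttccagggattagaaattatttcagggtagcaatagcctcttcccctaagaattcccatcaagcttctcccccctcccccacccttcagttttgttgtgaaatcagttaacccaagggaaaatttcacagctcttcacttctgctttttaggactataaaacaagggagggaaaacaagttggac
Il1rn: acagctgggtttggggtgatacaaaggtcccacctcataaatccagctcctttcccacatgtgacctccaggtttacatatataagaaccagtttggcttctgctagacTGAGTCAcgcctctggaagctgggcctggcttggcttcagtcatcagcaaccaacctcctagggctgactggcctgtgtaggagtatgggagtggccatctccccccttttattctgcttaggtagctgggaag
Il1r2: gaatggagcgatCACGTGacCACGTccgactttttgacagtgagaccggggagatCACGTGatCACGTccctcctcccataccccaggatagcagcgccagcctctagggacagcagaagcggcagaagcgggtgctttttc

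The Il1a window held an AP-1 match beginning 12 bases before the start and a PU.1 match 41 bases before it. The Il1rn window held an AP-1 match 141 bases before the start. None of the 6 motifs was found in the Il1b window. The Il1r2 window held 6 matches to the hypoxia response core between 187 and 238 bases before the start, the palindrome CACGTG counting on both strands. Of all 32851 RefSeq windows of this length, 6.75% held AP-1, 16.6% the hypoxia response core, 9.56% C/EBP, 23.3% PU.1, 17.8% the cAMP response core and 3.90% the NF-κB consensus. Among the 13 windows of the family, 2 held AP-1, 3 the hypoxia response core, 3 C/EBP, 1 PU.1, 2 the cAMP response core and 1 the NF-κB consensus, the last at the second start of Il1r1. Besides Il1r2, the hypoxia response core was found at Il1r1, which was called lower in OGD, and at Il1rap, which was not called in OGD.

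The values are FPKM, fragments scaled by gene length and library depth, as the authors deposited them. Each library held between 12593250 and 16091038 recovered gene reads, and 1 read on a gene of 1 kb was worth between 0.0618 and 0.0786 FPKM. The 10 most abundant genes took from 5.38% to 6.37% of the reads. Of 12 microglia and macrophage markers, 11 reached a mean of 1 FPKM, and the sum of all 12 was from 465 to 483 FPKM in control, from 532 to 564 with OGD alone and from 1092 to 1119 with A-485 added. P2ry12, a marker of resting microglia, stayed near 0 in each group (means of 0.0621, 0.0103 and 0.244 FPKM). Aqp4, Mog, Olig2, Cldn5, Dcn, Trac, Ly6g, S100a9, Kit, Mcpt4 and Ms4a2, markers of other cell types, had no reads in any library. In bulk RNA, fewer expressing cells and less RNA per cell cannot be told apart. The labels do not say whether the libraries of a group came from separate cultures, so the p-values measure the spread between these libraries.

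Each gene was tested on log2(FPKM + 0.1) with limma, in a fit of the 16123 genes whose mean reached 0.2 FPKM. A change was called where the unadjusted p-value was under 0.01 and the log2 fold change exceeded 0.5 in size, and the p-values printed are adjusted over all genes (Benjamini-Hochberg). All 9 members of the family passed the filter. In OGD against control, 4 members were called higher (Il1a, Il1b, Il1rn and Il1r2), against 11.2% of all genes tested, and 1 was called lower (Il1r1), against 9.81%. In OGD + A-485 against OGD, 2 were called higher (Il1a and Il1rl1), against 12.2% of all genes, and 4 lower (Il18, Il1rn, Il1r1 and Il1rap), against 13.4%. In OGD + A-485 against control, 3 were called higher (Il1a, Il1b and Il1rl1), against 17.0%, and 3 lower (Il18, Il1r1 and Il1rap), against 16.6%. The median log2 fold change of the members in these comparisons was 0.29, -0.48 and -0.12, beside 0.01, 0.01 and 0.02 over all genes tested. The comparisons share libraries and are not independent of each other.

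**Figure D1:**
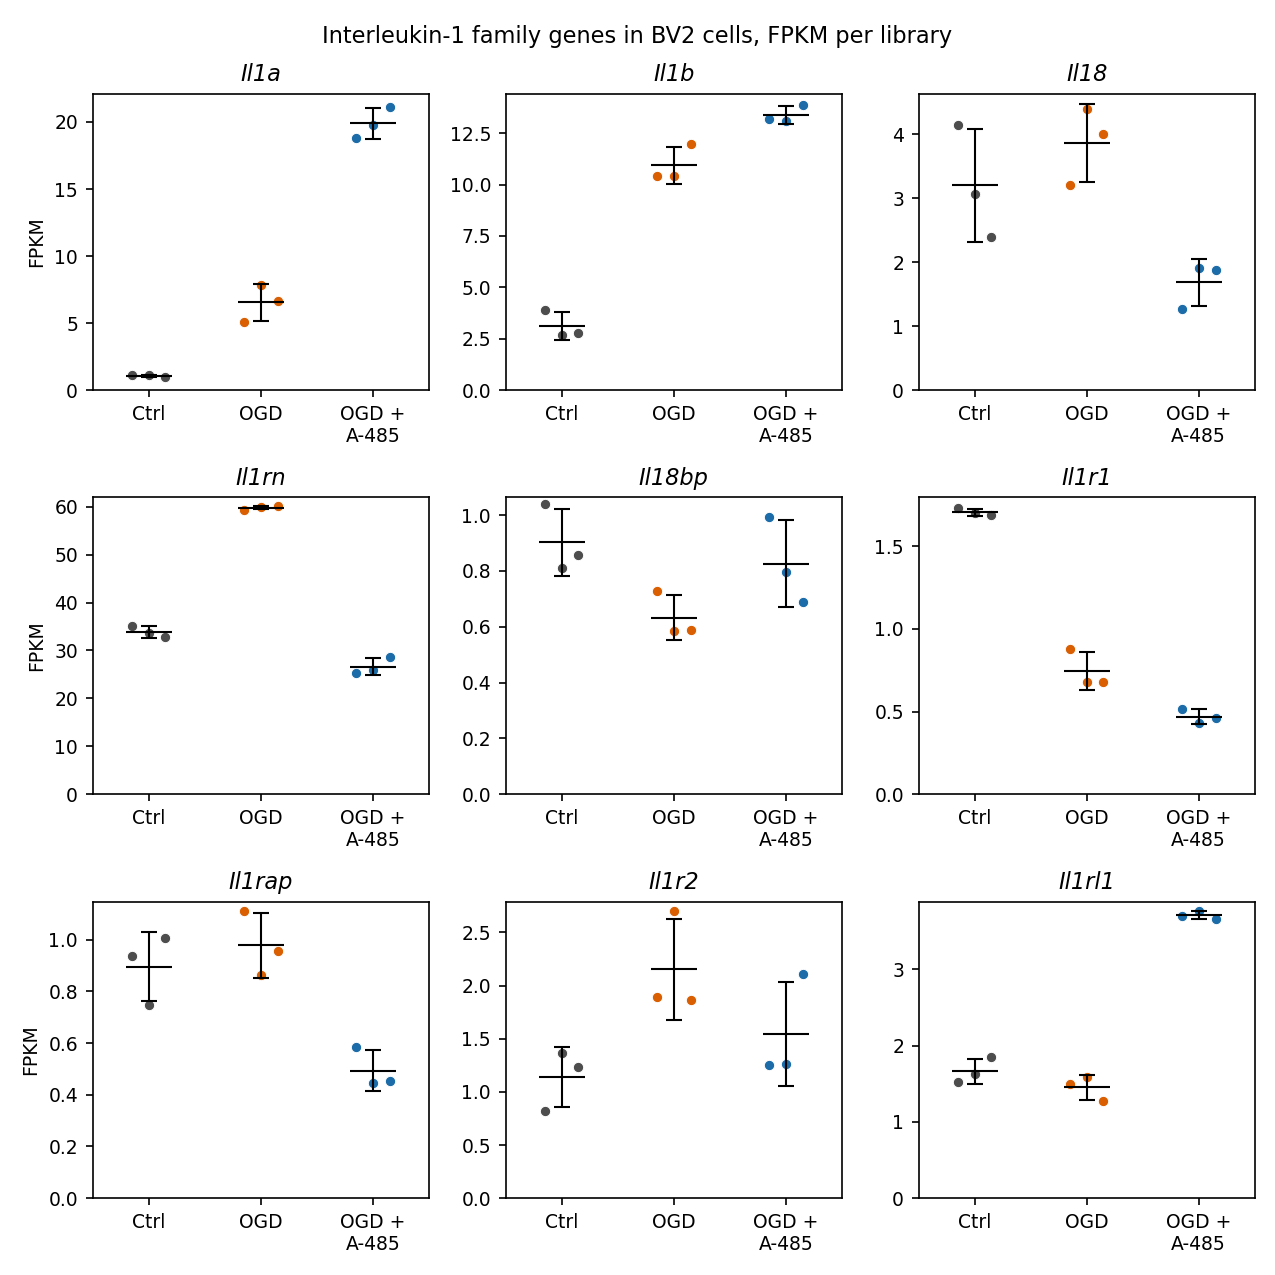
FPKM of the 9 interleukin-1 family genes in each library of the Ctrl, OGD and OGD + A-485 groups. Points are libraries, horizontal bars the group mean and error bars the SD (n = 3), and each panel has its own linear axis from 0. Il1a climbed in both steps, Il1rn peaked in OGD, and Il1rl1 was high only in the OGD + A-485 libraries.

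Il1a showed the largest fold changes of the family. The alarmin interleukin-1α is held inside cells and released on damage. The control libraries had 1.14, 1.10 and 1.001 FPKM, the OGD libraries 5.09, 7.86 and 6.66, and the OGD + A-485 libraries 18.8, 19.8 and 21.1. The groups did not overlap, and the gene stood on 30 to 32 reads in control against 543 to 616 in OGD + A-485. The mean rose 6.05-fold with OGD, from 1.08 ± 0.0708 (SD, n = 3) to 6.54 ± 1.39, with a log2 fold change of 2.47 (SE 0.14, limma adjusted p = 3.01e-06). It rose a further 3.04-fold with A-485, to 19.9 ± 1.15, with a log2 fold change of 1.61 (SE 0.14, limma adjusted p = 1.91e-05). From control to OGD + A-485 the log2 fold change was 4.08 (SE 0.14, limma adjusted p = 6.49e-08). A transcript on the opposite strand, Gm14023, shares 222 bases (11.2%) of the Il1a exons but had at most 9 reads in any library.

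Il1b, the ligand processed in inflammasomes, rose with OGD, and its further difference with A-485 was not called. Its level was 3.89, 2.69 and 2.78 FPKM in control, 10.4, 10.4 and 11.97 with OGD alone, and 13.2, 13.1 and 13.9 with A-485 added. The groups did not overlap, with control lowest and OGD + A-485 highest. With OGD the mean rose 3.50-fold, from 3.12 ± 0.666 to 10.9 ± 0.901 (log2 fold change 1.79, SE 0.13, limma adjusted p = 9.36e-06). With A-485 the mean was 13.4 ± 0.417, and the difference of 0.29 on the log2 scale (SE 0.13) was not called. Its 95% interval ran from just under 0 to 0.59 (limma adjusted p = 0.0902). Against control, Il1b was called higher in OGD + A-485 with a log2 fold change of 2.09 (SE 0.13, limma adjusted p = 1.43e-06). The antisense transcript Il1bos shares 25 bases (1.31%) of the Il1b exons and had 3 to 19 reads.

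Il18 was not called in OGD and fell with A-485. The control libraries held 4.14, 3.06 and 2.40 FPKM, the OGD libraries 3.20, 4.396 and 3.999, and the OGD + A-485 libraries 1.26, 1.90 and 1.88. Control and OGD overlapped, and the OGD + A-485 libraries lay below both. The OGD difference was 0.29 on the log2 scale (SE 0.23, 95% interval from -0.23 to 0.80, limma adjusted p = 0.343). With A-485 the mean fell from 3.87 ± 0.609 to 1.68 ± 0.365, a log2 fold change of -1.16 (SE 0.23, limma adjusted p = 0.00236). It was also below control, by -0.88 (SE 0.23, limma adjusted p = 0.00899), but that call was lost without control library 1 (-0.68), control library 2 (-0.89) or OGD + A-485 library 1 (-0.69). The gene rested on 19 to 59 reads per library. Bco2, on the opposite strand of the same locus, changed by 0.66 with OGD and by -1.13 with A-485 on the log2 scale (limma adjusted p = 0.000176 and 5.70e-06), and shares no exon base with Il18.

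Il1rn, the interleukin-1 receptor antagonist, was the most abundant member per length in all 3 groups. It had 35.2, 33.7 and 32.8 FPKM in control, 59.4, 59.9 and 60.1 with OGD alone, and 25.2, 26.0 and 28.6 with A-485 added. The groups did not overlap, and at least 2039 reads stood behind each value. The mean rose 1.76-fold with OGD, from 33.9 ± 1.203 to 59.8 ± 0.366 (log2 fold change 0.82, SE 0.05, limma adjusted p = 4.49e-06). It fell with A-485 to 26.6 ± 1.78, a 2.25-fold lower mean (log2 fold change -1.17, SE 0.05, limma adjusted p = 3.61e-07). Against control the OGD + A-485 value differed by -0.35 (SE 0.05, limma adjusted p = 0.000304). This was under the size needed for a call, and was called at -0.51 when libraries were scaled to the same sum.

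Il18bp, which neutralizes interleukin-18, was called in no comparison. The control libraries had 1.04, 0.812 and 0.857 FPKM, the OGD libraries 0.727, 0.584 and 0.587, and the OGD + A-485 libraries 0.995, 0.795 and 0.688. The OGD libraries lay below the control libraries, with a log2 difference of -0.45 (SE 0.19, limma adjusted p = 0.0866). The OGD + A-485 libraries overlapped with both other groups, with differences of 0.33 from OGD (95% interval from -0.11 to 0.77) and -0.12 from control (95% interval from -0.56 to 0.31). Numa1, expressed between 21.2 and 28.2 FPKM in the group means, lies on the opposite strand and shares 80 bases (2.64%) of the Il18bp exons, and whether the counting used strand is not given in the sources used here.

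**Figure D2:**
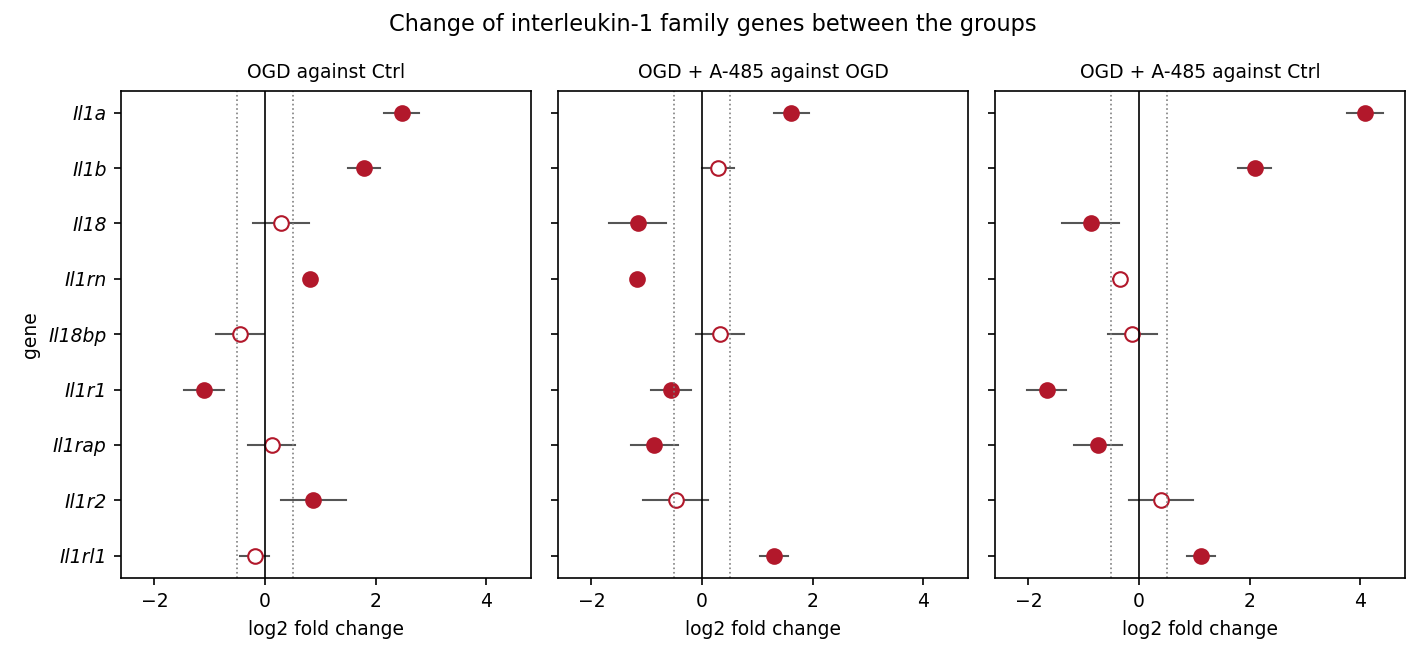
Log2 fold change of each interleukin-1 family gene for each pair of groups, from limma on log2(FPKM + 0.1). Lines are 95% intervals, filled circles were called, open circles were not, and dotted lines mark the fold threshold of 0.5. Il1a lies to the right in all panels and Il1r1 to the left, whereas Il1rn changes side between the first panel (0.82) and the second (-1.17).

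Il1r1, the signalling receptor for both interleukin-1 ligands, fell in both steps, whereas Il1a rose in both. Its level was 1.73, 1.70 and 1.69 FPKM in control, 0.877, 0.676 and 0.682 with OGD alone, and 0.516, 0.428 and 0.458 with A-485 added. No groups overlapped, and the gene had 147 to 174 reads in control and 42 to 48 in OGD + A-485. The mean fell from 1.71 ± 0.0212 to 0.745 ± 0.114 with OGD (log2 fold change -1.10, SE 0.16, limma adjusted p = 0.000477). With A-485 it was 0.467 ± 0.0450 (log2 fold change -0.57, SE 0.16, limma adjusted p = 0.0152). This second call was lost in 12 of 20 alternatives, among them the fits without any one of the 3 control libraries (-0.57 each), without OGD library 1 (-0.46) and without OGD + A-485 library 2 (-0.52) or 3 (-0.56). From control to OGD + A-485 the mean was 3.65-fold lower (log2 fold change -1.67, SE 0.16, limma adjusted p = 2.14e-05), a call kept in each of 20 alternatives.

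Il1rap, the accessory chain shared by IL-1R1 and ST2, fell with A-485 and was not called in OGD. The control libraries had 0.936, 0.748 and 1.01 FPKM, the OGD libraries 1.11, 0.865 and 0.957, and the OGD + A-485 libraries 0.584, 0.446 and 0.452. Control and OGD overlapped, and OGD + A-485 lay below both. The OGD difference was 0.12 (SE 0.19, 95% interval from -0.31 to 0.55, limma adjusted p = 0.657), and changed sign under quantile normalization. With A-485 the mean fell from 0.979 ± 0.125 to 0.494 ± 0.0783 (log2 fold change -0.86, SE 0.19, limma adjusted p = 0.00460), a call lost with a pseudocount of 1 (-0.40). Against control it fell by 0.75 on the log2 scale (SE 0.19, limma adjusted p = 0.00835), a call lost in 6 of 20 alternatives, including the fits without control library 1 (-0.71) or 3 (-0.67) and without OGD + A-485 library 2 (-0.69) or 3 (-0.70).

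Il1r2, the decoy receptor, was called higher in OGD near the threshold. Its level was 0.824, 1.36 and 1.23 FPKM in control, 1.89, 2.70 and 1.86 with OGD alone, and 1.26, 1.26 and 2.11 with A-485 added, on 21 to 67 reads. The OGD libraries lay above the control libraries, and the OGD + A-485 libraries overlapped with both. The mean went from 1.14 ± 0.280 to 2.15 ± 0.473 with OGD (log2 fold change 0.87, SE 0.26, limma adjusted p = 0.0223). The call was lost in 12 of 21 alternatives. These included the fits without control library 1 (0.67) or 3 (0.93), without OGD library 1 (0.95), 2 (0.70) or 3 (0.96), and without OGD + A-485 library 1 or 2 (0.87 each). The OGD + A-485 group differed from OGD by -0.48 (95% interval from -1.06 to 0.11) and from control by 0.39 (95% interval from -0.19 to 0.98), and neither was called.

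Il1rl1, which encodes the interleukin-33 receptor ST2, rose with A-485, and its OGD difference was not called. It had 1.52, 1.63 and 1.85 FPKM in control, 1.49, 1.59 and 1.27 with OGD alone, and 3.70, 3.77 and 3.66 with A-485 added. Control and OGD overlapped, and each OGD + A-485 library was above all 6 others. The OGD difference was -0.19 (SE 0.11, 95% interval from -0.44 to 0.07, limma adjusted p = 0.215). With A-485 the mean rose 2.56-fold, from 1.45 ± 0.166 to 3.71 ± 0.0519 (log2 fold change 1.30, SE 0.11, limma adjusted p = 1.93e-05), and against control the log2 fold change was 1.11 (SE 0.11, limma adjusted p = 3.37e-05). ST2 is also a marker of mast cells, of whose 4 markers Kit, Mcpt4 and Ms4a2 had no reads. The remaining one, Cpa3, had 1 read in the control group, no reads in OGD and 0.0902, 0.125 and 0.0457 FPKM in the OGD + A-485 libraries, on 1 to 3 reads, and its part in the result was not tested. Il33, the ligand of ST2, was too low to be tested, with group means of 0.0538 ± 0.0495, 0.363 ± 0.08602 and 0.118 ± 0.106 FPKM and at most 18 reads.

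Ratios between members were taken within each library, so that multiplying a library by any factor leaves them as they are. The log2 ratio of Il1a to Il1b was -1.77, -1.29 and -1.48 in control, -1.03, -0.40 and -0.84 in OGD, and 0.51, 0.59 and 0.61 in OGD + A-485. Il1b was thus the more abundant ligand per length in every control and OGD library, and Il1a in every OGD + A-485 library. The shift with A-485 was 1.33, a 2.52-fold change of the ratio. With 3 libraries against 3, the smallest p-value of the two-sided exact permutation test is 0.1 (0.106 adjusted over the 18 comparisons of ratios), and it was reached here. It was also reached for the other pairs of members below, with the exception of Il1r1 to Il1r2 between OGD and OGD + A-485.

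The antagonist was lower relative to its competing ligands in both steps. The level of Il1rn per summed level of Il1a and Il1b, a sum formed after the values were seen, was 7.005, 8.91 and 8.66 in control. It was 3.83, 3.28 and 3.23 in OGD, and 0.787, 0.792 and 0.818 in OGD + A-485. In FPKM, the antagonist exceeded the summed ligands in the control and OGD groups, and was below them in each library with A-485. Which side is larger depends on the exon lengths used, 5535 bases for Il1rn against 1974 for Il1a and 1907 for Il1b. In reads, the OGD + A-485 libraries had 2039 to 2283 for Il1rn, 543 to 616 for Il1a and 368 to 394 for Il1b. The mean of the ratio went from 8.19 ± 1.03 to 3.45 ± 0.333 and to 0.799 ± 0.0166, with no overlap between groups. Taken singly, the ratio of Il1a to Il1rn changed by 1.76 with OGD and by 2.80 with A-485 on the log2 scale, and that of Il1b to Il1rn by 1.01 and 1.47.

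Il18 relative to its binding protein was higher in OGD and lower again with A-485. The geometric mean ratio of Il18 to Il18bp was 3.48 in control, 6.09 with OGD alone, and 2.03 with A-485 added, with log2 changes of 0.81 and -1.59. The log2 ratio was 1.99, 1.92 and 1.48 in control, 2.14, 2.91 and 2.77 in OGD, and 0.34, 1.26 and 1.45 in OGD + A-485. Neither gene alone was called in OGD against control, and both had few reads. For the receptors, the ratio of Il1r1 to the decoy Il1r2 was 1.53 in control, 0.349 with OGD alone, and 0.312 with A-485 added. Its change was -2.14 with OGD and -0.16 between OGD and OGD + A-485 (two-sided exact permutation p = 0.6). In FPKM, Il1r1 therefore exceeded Il1r2 in the control libraries and was below it in the libraries of both OGD groups. Which of the 2 is larger also depends on the exon lengths used, 6363 bases for Il1r1 and 1908 for Il1r2. The ratio of Il1r1 to Il1rap was 1.92, 0.759 and 0.951, with changes of -1.34 and 0.32.

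**Figure D3:**
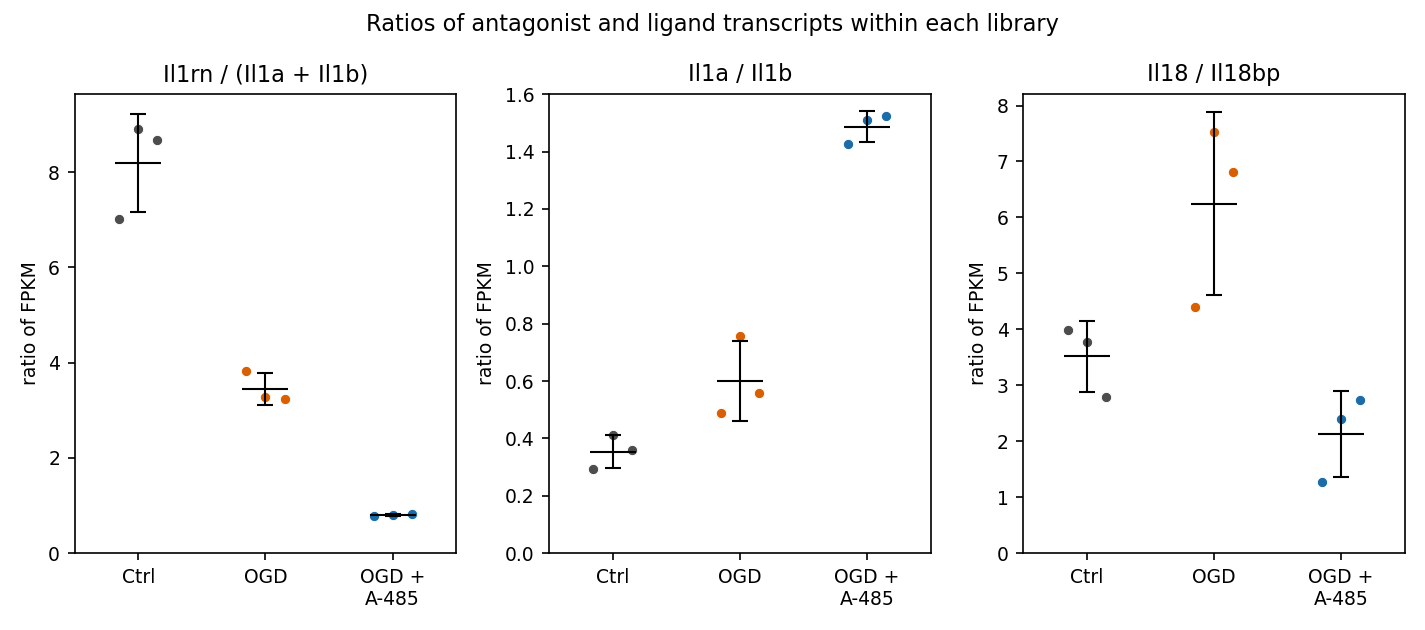
Ratios of FPKM within each library for Il1rn to the sum of Il1a and Il1b, Il1a to Il1b, and Il18 to Il18bp, in Ctrl, OGD and OGD + A-485. Points are libraries, horizontal bars the arithmetic mean and error bars the SD (n = 3), on linear axes from 0. The first ratio drops from 8.19 to 0.799 while the ratio of Il1a to Il1b passes 1 in the OGD + A-485 group.

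Most of the microglia and macrophage markers tested were called higher with A-485, as were Il1a and Il1rl1, whereas 4 members were called lower. Of the 11 markers tested, 4 were called higher in OGD against control, beside 11.2% of all genes tested. In OGD + A-485 against OGD 9 were called higher, beside 12.2%. None was called lower in these comparisons, beside 9.81% and 13.4% of all genes. Csf1r, the receptor for colony stimulating factor 1, had means of 24.2 ± 1.05, 44.6 ± 0.987 and 131 ± 2.58 FPKM, and Adgre1, which encodes F4/80, 20.8 ± 0.872, 18.8 ± 0.341 and 77.5 ± 2.502. Tmem119 did not follow them (1.402 ± 0.2002, 1.33 ± 0.1999 and 1.33 ± 0.126 FPKM). The 5 neutrophil markers had a sum from 0.0808 to 0.326 FPKM in control, from 0.247 to 0.533 with OGD alone and from 1.38 to 2.84 with A-485 added. S100a8, with means of 0.0337, 0.222 and 1.94 FPKM, made up most of the sum in the A-485 libraries, whereas Elane was the larger part in control. The part of these shifts in the rise of Il1a and Il1rl1 was not tested.

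The rest of the pathway was followed in lists of 70 genes, of which 56 were tested. In OGD against control 17 of these were called higher and 2 lower, beside 11.2% and 9.81% of all genes tested. In OGD + A-485 against OGD 13 were called higher and 11 lower, beside 12.2% and 13.4%. With libraries scaled to the same sum, 9 were called higher and 13 lower in OGD + A-485 against OGD. The median log2 fold changes of the 56 genes in the main fit were 0.23 and 0.19, beside 0.01 and 0.01 over all genes. Against control, 24 were called higher and 8 lower in OGD + A-485, beside 17.0% and 16.6%. The counts of the single lists that follow are to be read against the same shares.

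Among the other ligands of the family, 2 of 6 were tested. Il36a, an agonist ligand of the interleukin-36 receptor listed in the table under its older symbol Il1f6, had 3.48, 3.100 and 1.96 FPKM in control, 4.63, 6.52 and 5.72 with OGD alone, and 1.01, 1.15 and 0.628 with A-485 added. It rose with OGD by 0.98 (SE 0.26) and fell with A-485, with a log2 fold change of -2.50 (SE 0.26, limma adjusted p = 5.78e-05). Il36g was called in no comparison. Among the other receptors, 2 of 6 were tested, Il18rap and Sigirr. Sigirr, an inhibitory member of the receptor family, had 7.24 ± 0.485, 8.35 ± 0.902 and 3.79 ± 0.476 FPKM and fell with A-485 (log2 fold change -1.12, SE 0.11, limma adjusted p = 4.01e-05). Il18rap, a chain of the interleukin-18 receptor, had 5.12 ± 0.397, 4.56 ± 0.129 and 3.515 ± 0.277 FPKM. It was called in neither step, with differences of -0.16 with OGD and -0.37 with A-485 (SE 0.08 each). Against control it was called lower in OGD + A-485 (log2 fold change -0.53, SE 0.08, limma adjusted p = 0.00048). Its partner Il18r1 had at most 7 reads.

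Of the 12 receptor-proximal signalling genes tested, 1 was called lower with OGD and 2 were called higher with A-485. Myd88, the adaptor of the receptor, fell with OGD from 31.8 ± 0.706 to 15.6 ± 0.809 FPKM (log2 fold change -1.03, SE 0.05, limma adjusted p = 1.83e-06). Irak3, which encodes the inhibitory kinase IRAK-M, had 0.122, 0.172 and 0.202 FPKM in control and 0.171, 0.0418 and 0.0967 in OGD, on at most 12 reads. With A-485 it had 15.4, 16.1 and 15.5 FPKM on 822 to 932 reads, a log2 fold change of 6.33 (SE 0.24, limma adjusted p = 2.07e-07). Its means in control and OGD (0.165 and 0.103 FPKM) were under the filter of 0.2 FPKM. Irak3 was thus tested and named only through the libraries where it was high, and the size of its change depends on the pseudocount. Irak4, the kinase that first joins MyD88, rose with A-485 by 0.53 (SE 0.08, limma adjusted p = 0.000673). Irak1, Irak2, Traf6 and Tollip were not called in either of these comparisons. With OGD they differed by 0.34, 0.4998, 0.49 and 0.41, under the fold threshold (limma adjusted p = 0.000152, 7.92e-05, 0.000119 and 3.49e-05). Against control, Irak1, Traf6 and Tollip were called higher in OGD + A-485 (0.55, 0.69 and 0.66), and Irak2 (0.26) was not called.

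Of the 11 processing and release genes tested, 3 were called higher and none lower with OGD, while 4 were called higher and 1 lower with A-485. Nlrp3, the inflammasome sensor, rose with OGD from 22.5 ± 1.27 to 41.6 ± 1.41 FPKM (log2 fold change 0.88, SE 0.05) and was 49.4 ± 1.69 with A-485. This further difference of 0.25 (SE 0.05, limma adjusted p = 0.00292) was under the fold threshold and not called. Casp1, the protease that activates interleukin-1β and interleukin-18, was 12.4 ± 0.376, 10.4 ± 0.892 and 26.3 ± 1.99 FPKM and rose with A-485 (log2 fold change 1.34, SE 0.07, limma adjusted p = 1.33e-06). Casp4 and Tmed10, the latter a membrane protein in the unconventional secretion of interleukin-1β, rose with A-485 by 0.98 (SE 0.08) and 0.64 (SE 0.03). S100a13, which takes part in the export of interleukin-1α, rose in both steps (0.57 and 0.59, SE 0.13 each). Capn1, a calpain that can cut the interleukin-1α precursor, rose with OGD by 0.81 and fell with A-485 (log2 fold change -0.62, SE 0.07 each). Pycard, the inflammasome adaptor ASC, was too low to be tested, with means of 0.0417 ± 0.00623, 0.0667 ± 0.0473 and 0.248 ± 0.134 FPKM and at most 24 reads.

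The 17 tested genes known to be induced by interleukin-1, most of which other inflammatory signals also induce, were called higher in 13 cases and lower in none with OGD (median log2 fold change 0.95). With A-485, 5 were called higher and 8 lower (median -0.33). Ptgs2, which encodes cyclooxygenase-2, rose from 17.4 ± 0.1602 to 185 ± 29.9 FPKM with OGD and fell to 64.3 ± 2.97 with A-485 (log2 fold changes 3.39 and -1.51, SE 0.10 each). Nos2, the inducible nitric oxide synthase, also rose and fell (2.40 and -1.14, SE 0.05 each). The neutrophil chemokine Cxcl2 and the collagenase Mmp13 rose with OGD (2.61, SE 0.14, and 2.30, SE 0.27) without a call for A-485. Il6, Csf2 and Ptges fell with A-485 (log2 fold changes -3.37, -2.12 and -2.11), whereas Saa3, an acute phase protein, rose (2.89, SE 0.25). Several of these genes were examined by the study itself in the same cells, so the list is not independent evidence.

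Of 12 genes of transcription factors known at the Il1b promoter and of the A-485 targets, 1 was called lower with OGD and 2 were called higher with A-485. Fos, a part of AP-1, fell with OGD (log2 fold change -0.96, SE 0.18) and rose with A-485 (1.40, SE 0.18). Spi1, which encodes PU.1 and is also among the macrophage markers, was 43.9 ± 0.852, 38.5 ± 3.301 and 97.9 ± 6.398 FPKM and rose with A-485 (log2 fold change 1.34, SE 0.07, limma adjusted p = 9.01e-07). Ep300 and Crebbp, the genes of the acetyltransferases inhibited by A-485, were not called in any comparison. In OGD + A-485 against OGD they differed by 0.18 (SE 0.06) and 0.395 (SE 0.07), under the fold threshold (limma adjusted p = 0.0377 and 0.00132).

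**Figure D4:**
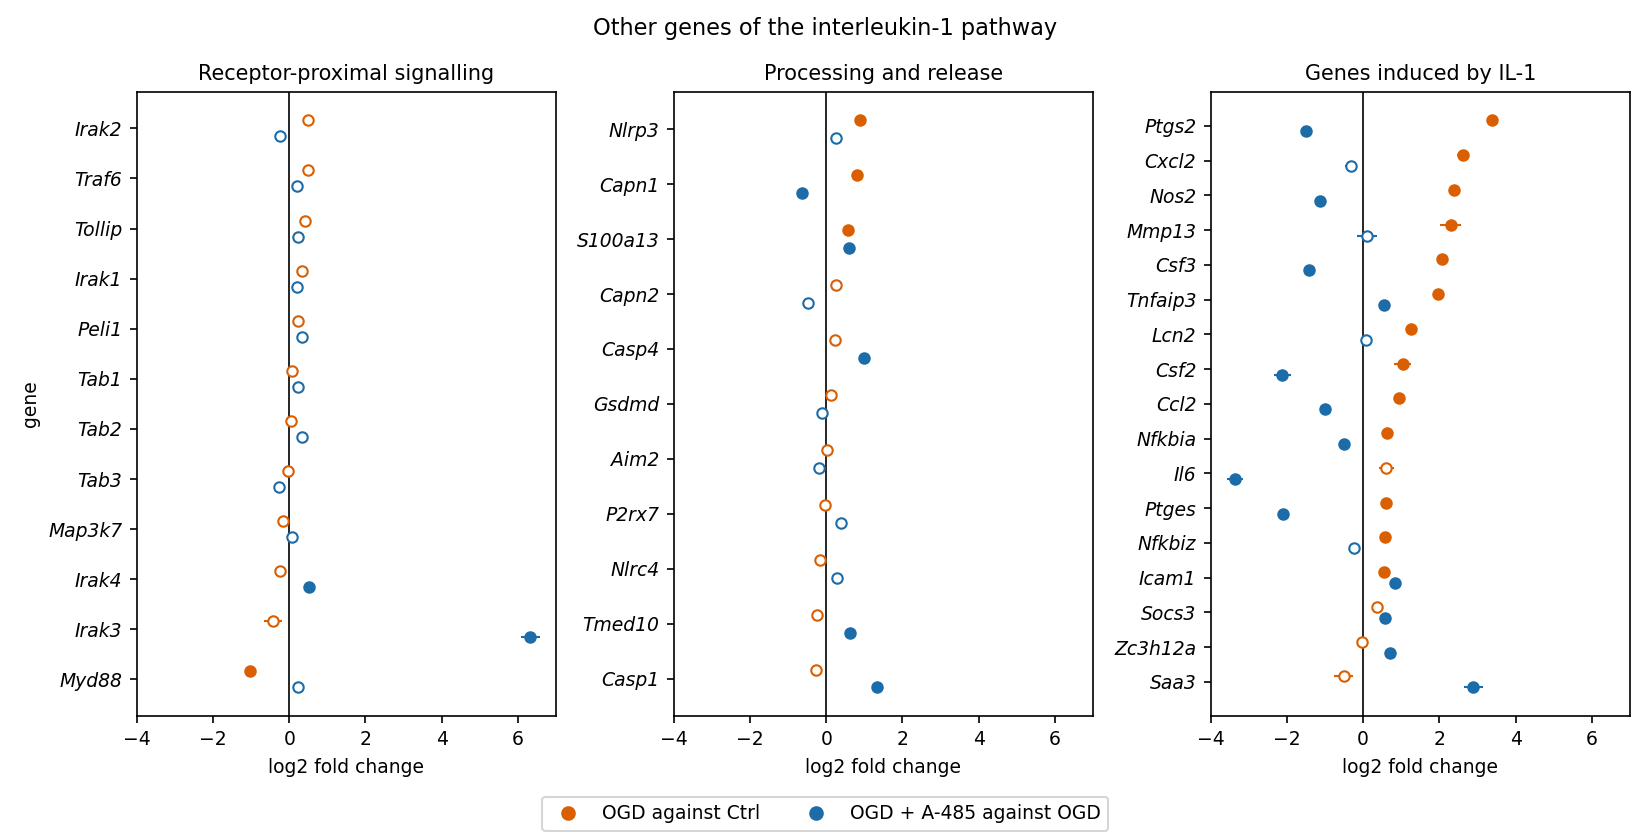
Log2 fold change of the tested genes of receptor-proximal signalling, of processing and release, and of the list induced by interleukin-1, in OGD against Ctrl and in OGD + A-485 against OGD. Circles are limma estimates with SE bars, filled where called. Irak3, whose Ctrl and OGD means were under the filter of 0.2 FPKM, lies at 6.33 in the second comparison. Most genes in the right panel lie above 0 in the first comparison.

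The genes whose profile was nearest to each member were found among the 10193 genes whose mean reached 1 FPKM, as the root mean square difference of centred log2(FPKM + 0.1) over the 9 libraries. The closest profile of all was that of Exoc5 to Il1rl1 (0.0577), followed for that receptor by Casp1 (0.0900) and Pon3 (0.0905). For Il1rn the nearest were Zfp36 (0.0764), Ltb (0.0965) and Plk2 (0.0983). Il1r1 was nearest to Tpgs2 (0.0836), Gins1 (0.107) and Nek2 (0.109), and Il1rap to Cxcr4 (0.0900), Akr1b8 (0.130) and Zbtb17 (0.133). Il1a and Il1b did not have each other among their nearest profiles. Il1b was nearest to Tiparp (0.156), Gsn (0.171) and Gys1 (0.175), and Il1a, with the least close neighbours, to Selenbp2 (0.315), Tnip3 (0.326) and Aox2 (0.340). Il18 was nearest to Spry1 (0.174), Praf2 (0.175) and Clcn2 (0.195), Il18bp to Tmppe (0.121) and Sinhcaf (0.125), and Il1r2 to a membrane-associated ring finger gene (0.147), Srp54c (0.206) and Chchd5 (0.221).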

How the data were processed

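RNA of BV2 cells was sequenced in 9 libraries, mapped to Ctrl, OGD and OGD + A-485 (3 each) by the sample titles. Per the methods of the study, the authors counted cleaned reads on genes with featureCounts 1.5.0-p3, computed FPKM from the counts and gene lengths, and tested with DESeq2. The authors deposited FPKM for 54532 genes with their lengths and coordinates. The builds named in the submitters' processing notes are GRCm38 and mm10, and coordinates and exon lengths of all 9 members equalled those of GENCODE M21. The aligner and the strand setting are not given in the sources used here.

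Whole reads (tolerance 0.01) could be recovered from 100% of the FPKM. Since FPKM are not counts, log2(FPKM + 0.1) was fitted with limma 3.58.1 (R 4.3.3) for genes whose mean reached 0.2 FPKM, with 1 coefficient per group over the 9 libraries and an intensity trend in the prior. The pseudocount understates changes of low genes. The fit was tested on simulated data. Ratios were compared with two-sided exact permutation tests. The rest ran in Python 3.11.15 (pandas 2.3.3, numpy 2.4.6, matplotlib 3.10.9, scipy 1.17.1).

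Every member was named. From each pathway list, up to 4 called genes with the largest change per comparison were named (mean of at least 1 FPKM), and the 3 nearest profiles per member, of which 1 is not reported here. Further genes of the lists were named after their values were seen (Il33, Il18rap, Il36g, Il18r1, Pycard, Irak1, Irak2, Traf6, Tollip, Ep300, Crebbp, Csf1r, Adgre1, Tmem119 and S100a8). Members and lists were chosen with earlier results of these data known. The alternatives were a pseudocount of 1 or 0.01, the filter set to 1 FPKM or left out, quantile normalization, scaling to the same sum, fits of only 2 groups, the replicate block, no trend, limma-voom on recovered reads, removal of the median of 50 neighbouring genes, each library left out, and an adjusted p-value under 0.05. A call without overlap between libraries was added after the data were seen. Within groups, the chi-square of recovered reads per degree of freedom was 2.80 to 5.73, so no libraries were duplicates.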

Additional observations from a re-analysis of the deposited data

How the results depend on the processing

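Of 558 values of the members under the alternatives, 521 kept direction and side of the threshold, 35 lost the call, 1 gained it and 1 reversed. The calls of Il1a in all 3 comparisons, of Il1b in OGD and OGD + A-485 against control, of Il1rn in both steps, of Il1rl1 with A-485 and of Il1r1 with OGD held in each alternative that gave a value. A minimum mean of 1 FPKM dropped Il1r1, Il1rap and Il18bp, which left 0 members lower in OGD against control, 2 in OGD + A-485 against OGD and 1 in OGD + A-485 against control. A pseudocount of 1 also left 2 lower in OGD + A-485 against OGD. Without control library 1, 1 member was lower in OGD + A-485 against control, and up to 3 were without other libraries. Quantile normalization turned Il1rap in OGD against control to -0.0573. The change of the ratio of Il1r1 to Il1r2 between OGD and OGD + A-485 ran from -0.40 to 0.10 with single libraries left out, and was 0.04 without OGD library 1 and 0.10 without OGD + A-485 library 3, and the cause was not tested. Equal replicate numbers did not pair the libraries (mean correlation of deviations -0.0302, against 0.0151 for different numbers). The replicate block therefore rests on a shared number only, and with it the A-485 call of Il1r1 (-0.57) was lost. Scaling to the same sum moved the median of all genes in OGD + A-485 against control to -0.13, and members there are to be read relative to it. Depth limits Il1r2, Il18 and Il18bp most, with fewer than 70 reads in every library.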
